A study of Bos taurus with 8 samples.

Results

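Ribosome biogenesis factors are the proteins that make, trim, modify and assemble ribosomal RNA (rRNA) into ribosomes without staying in the finished particle. A list of 60 such genes was followed here, chosen by role: rRNA modification by small nucleolar ribonucleoproteins (snoRNPs), nucleolar chaperones, assembly of the small and of the large ribosomal subunit, and RNA polymerase I. Probes were assigned to the genes through their RefSeq accession. Of the 60 genes, 50 had a matched probe that was detected, out of 10860 genes with a detected probe on the array. The other 10 genes (PWP2, WDR36, UTP3, UTP20, RIOK1, BOP1, PES1, DDX18, GNL3 and UBTF) are absent from the values below, since 0 probes were matched to them.

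The arrays measured liver RNA of 8 fetuses of multiparous Japanese Black cows, a beef breed of cattle. Dams of the low-nutrition (LN) fetuses L5, L6, L8 and L9 were fed 60% of their nutritional requirement during gestation, and dams of the high-nutrition (HN) fetuses L1, L2, L3 and L10 were fed 120%. Liver was sampled on the right of the carcass after cesarean section, at 8.5 months of gestation by the labels and around day 260 by the methods. All fetuses came from male-sorted semen of a single sire, and the methods chose fetuses by body weight, the lightest of LN and the heaviest of HN, so diet and body size cannot be told apart. There was no group fed the exact requirement. The labels give 1 fetus per array, whereas the series text speaks of pooled RNA, and the arrays are treated here as 8 separate fetuses.

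Each array carried 43803 spots, of which 32635 to 33371 were well above background in LN and 33254 to 34369 in HN, with 0 saturated spots. The 4 LN arrays shared one slide and the 4 HN arrays another, so slide and diet cannot be told apart. Values are log2 of the background-subtracted signal after quantile normalization, and a difference is LN minus HN on that scale. A gene is given by its brightest detected probe, and signals of different genes cannot be set against each other. None of the 33439 detected probes met an adjusted limma p of 0.05 (0 probes, 0%; the lowest value was 0.634). Without adjustment 2113 probes were at 0.05 or less, and the methods' t-test, which they name for metabolites and not for arrays, likewise left 0 probes after adjustment. An exact permutation test over 8 fetuses cannot give a p under 0.0286, and precision is limited by the number of arrays. Albumin and 8 other hepatocyte markers of 10 listed were detected, with a mean log2 signal of 17.44 to 17.59 in LN and 17.51 to 17.56 in HN.

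Ribosomes are built mainly in the nucleolus, where RNA polymerase I transcribes a long rRNA precursor. On this precursor the small subunit processome assembles, snoRNPs guide chemical modification, and helicases, GTPases and kinases drive cleavage and folding until both subunits are exported and finished in the cytoplasm. The output of this pathway is closely tied to cell growth, and in the fetal liver it serves growing hepatocytes and any blood-forming cells present.

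The ribosome biogenesis genes were shifted toward higher signal in LN livers by a small amount each. Of the 50 detected genes, 48 had a higher mean in LN (96%), whereas 51.6% of all 10860 genes did. Their median log2 difference was 0.31, with a range from -0.068 to 0.83 and a middle range of 0.19 to 0.38 between the quartiles. Over all genes the median was 0.0075 and the quartiles were -0.13 and 0.14. The signal was more than 25% higher in LN for 24 genes (48%, against 7.82% of all genes) and more than 20% lower for 0 genes (against 8.63%), both a ratio beyond the same limit. A change of 2-fold was reached by 0 of them.

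At an unadjusted limma p of 0.05 or less, 11 of the 50 genes were higher in LN (22%, against 3.30% of all genes) and 0 were lower (against 2.75%). In 5 genes all LN fetuses lay above all HN fetuses (10%, against 2.59%), and 0 genes had the reverse order (against 1.56%). These counts describe the list. No gene of it passed the adjusted threshold (adjusted limma p from 0.760 to 0.994). The spread between fetuses was ordinary for this array: the median SD of the 50 genes was 0.19 in LN and 0.23 in HN, beside 0.22 and 0.21 over all genes. In bulk tissue, a change in the number of cells of a type and a change in RNA per cell cannot be told apart.

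The probes of a gene mostly pointed the same way. The list had 116 detected probes of 117 matched, and 112 of them (96.6%) were higher in LN, against 50.3% of all detected probes. Of 39 genes with more than 1 detected probe, 36 had all their probes higher in LN. The other 3, MRTO4, SBDS and POLR1A, had probes in both directions and are described with their classes.

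**Figure D1:**
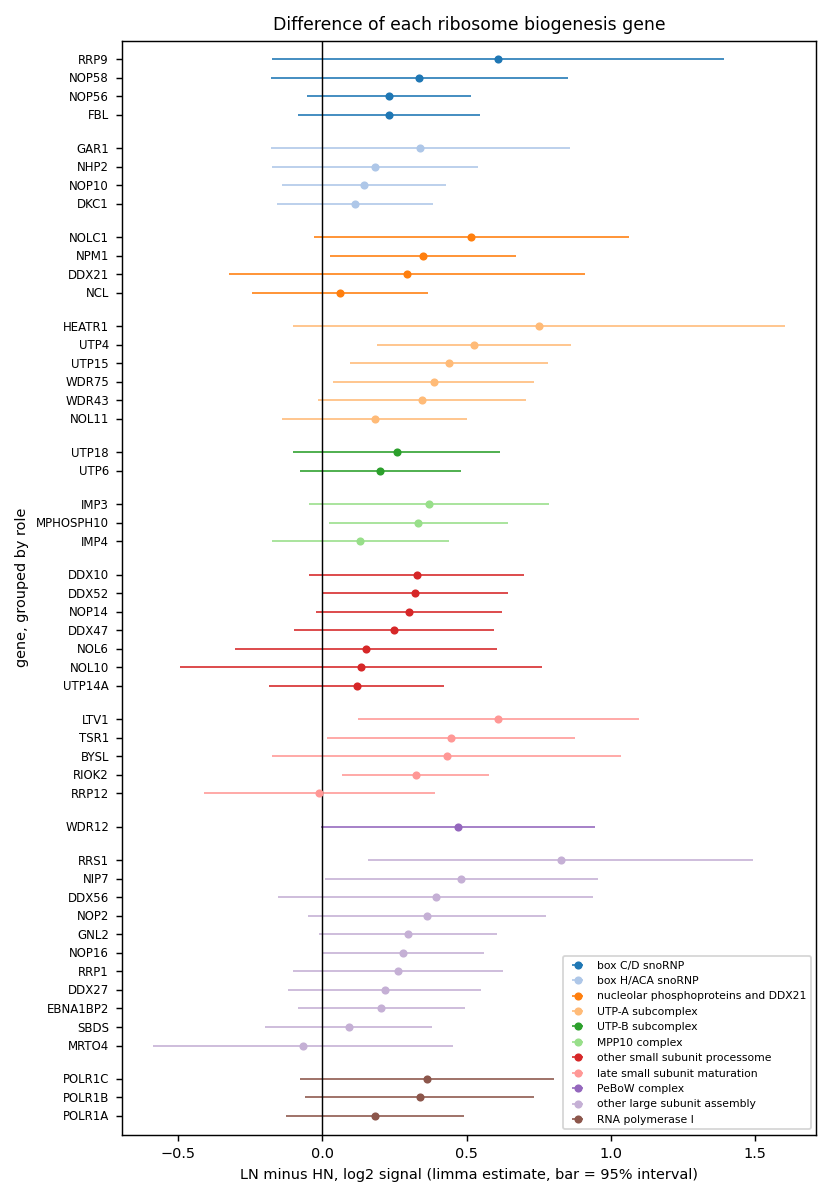
LN minus HN difference in log2 signal for the 50 detected ribosome biogenesis genes, grouped by role, with the limma estimate as a point and its 95% interval as a bar (4 fetuses per group). All but 2 points lie right of 0, and 11 intervals lie wholly above 0.

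The UTP-A subcomplex is the first to bind the nascent rRNA precursor and is also needed for its transcription. All 6 UTP-A genes (HEATR1, UTP4, UTP15, WDR75, WDR43 and NOL11) had a detected probe, all 6 were higher in LN, and the median difference was 0.41. UTP4 (NM_001205672), also known as cirhin and affected in a hereditary childhood cirrhosis, had log2 signals of 7.52, 7.22, 7.58 and 7.56 in LN fetuses L5, L6, L8 and L9. In HN fetuses L1, L2, L3 and L10 it was 7.15, 6.78, 7.13 and 6.73. Every LN fetus lay above every HN fetus, with L6 coming closest to the HN values. The means were 7.47 ± 0.17 in LN and 6.95 ± 0.22 in HN (SD, n = 4), a difference of 0.53 or 1.44-fold (SE 0.15, exact permutation p = 0.0286, limma adjusted p = 0.760). With single fetuses left out the difference of UTP4 ran from 0.45 to 0.61, and it alone of the 11 genes kept an unadjusted limma p of 0.05 or less in all 18 alternative analyses.

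WDR75 (NM_001102062), another UTP-A scaffold protein, read 11.14, 10.86, 10.77 and 10.78 in LN fetuses L5, L6, L8 and L9, and 10.62, 10.61, 10.63 and 10.15 in HN fetuses L1, L2, L3 and L10. The groups did not overlap, and within HN the first 3 values were nearly equal while L10 stood apart below them. The difference was 0.39 (SE 0.15, exact permutation p = 0.0286, limma adjusted p = 0.783), and 0.27 without L10. Its other probes, both dimmer, differed by 0.46 and 0.29.

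UTP15 (NM_001101128), a partner of UTP4 in the same subcomplex, had LN values of 8.82, 8.40, 8.76 and 8.46 against HN values of 8.42, 8.20, 8.12 and 7.94 in the same fetus order. LN fetus L6 lay just below HN fetus L1, so the groups overlapped by this pair alone. The difference was 0.44 (SE 0.15, exact permutation p = 0.0571, limma adjusted p = 0.760). HEATR1, the largest protein of the subcomplex, had the greatest UTP-A difference, 0.75, but also a wide error (SE 0.38, exact permutation p = 0.200, limma adjusted p = 0.787). Its LN signals of 5.58 to 6.73 overlapped HN signals of 4.60 to 6.20. With normexp background correction, whose offset shrinks dim probes, HEATR1 differed by 0.31, less than UTP15 at 0.40, WDR75 at 0.38 and UTP4 at 0.34. NOL11 was the smallest in the class at 0.18 (SE 0.14; 0.075 without L2).

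The UTP-B and MPP10 genes, which join the processome after UTP-A, were also higher in LN, with class medians of 0.23 (0.14 without L10) and 0.33. Differences between the role classes were not tested. In the UTP-B subcomplex, UTP18 differed by 0.26 (SE 0.16; 0.12 without L10) and UTP6 by 0.20 (SE 0.12), and in both the groups overlapped. The MPP10 complex, which prepares the precursor for its early cleavages, had 3 of 3 genes higher in LN. MPHOSPH10 (NM_001046317), its organizing protein, was 10.78, 10.95, 10.64 and 10.53 in LN and 10.50, 10.22, 10.55 and 10.30 in HN. Only L9 and L3 were out of order between the groups, and the difference was 0.33 (SE 0.14, exact permutation p = 0.0571, limma adjusted p = 0.785). IMP3, a partner that pairs the guide snoRNA with the precursor, differed by 0.37 (SE 0.18) on its brightest probe and by 0.017 (SE 0.19) on a probe of nearly the same brightness. IMP4 differed by 0.13 (SE 0.14), with 0.23 without L6, 0.083 without L8 and 0.076 without L9.

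Among the other processome factors, 7 of 9 listed genes were detected and all 7 were higher in LN, with a median of 0.25 and 0 of them at an unadjusted p of 0.05 or less. Over all 8 fetuses the greatest difference was that of the helicase DDX10, at 0.33 (SE 0.16; 0.21 without L10). DDX52 was close to it at 0.32 (SE 0.14) and lay above it without L10. The least was that of UTP14A, which helps to release the guide snoRNA, at 0.12 (SE 0.13). The UTP14A value was 0.064 without L6, 0.20 without L8 and 0.18 without L3, and 0.073 as the mean over its probes.

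Late maturation of the small subunit, which spans export and the cytoplasmic steps, had a class median of 0.43 over 5 detected genes of 6, which was 0.30 without L5. LTV1 (NM_001075326), an assembly factor that travels with the pre-subunit out of the nucleus, was 9.05, 8.65, 8.92 and 8.48 in LN fetuses L5, L6, L8 and L9 and 8.45, 8.07, 8.47 and 7.65 in HN fetuses L1, L2, L3 and L10. The groups touched but did not overlap, since L9 and L3 were almost level. The difference was 0.61 (SE 0.21, exact permutation p = 0.0286, limma adjusted p = 0.760). It was 0.44 without L10, and the dimmer LTV1 probe differed by 0.69 with no overlap either.

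RIOK2 (NM_001191291), an atypical kinase of the same late particle, showed the tightest values of the class. Its LN signals were 10.40, 10.18, 10.23 and 10.16 and its HN signals 9.95, 9.88, 10.04 and 9.80, with a clear gap between the groups. The difference was 0.32 (SE 0.11, exact permutation p = 0.0286, limma adjusted p = 0.760). A second, dimmer RIOK2 probe differed by 0.44, also without overlap. TSR1 (NM_001101933), a GTPase-like protein that keeps the immature subunit from joining translation, was 8.19, 8.02, 8.48 and 8.55 in LN and 8.19, 7.68, 8.07 and 7.52 in HN. Here the groups overlapped, and the difference was 0.45 (SE 0.19, exact permutation p = 0.114, limma adjusted p = 0.785). RRP12, an export factor, was the exception: its LN values of 7.91, 7.63, 8.22 and 8.12 lay among its HN values of 8.26, 8.08, 7.90 and 7.68. The RRP12 difference was -0.010 (SE 0.18), and its sign turned with any of 4 fetuses left out.

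**Figure D2:**
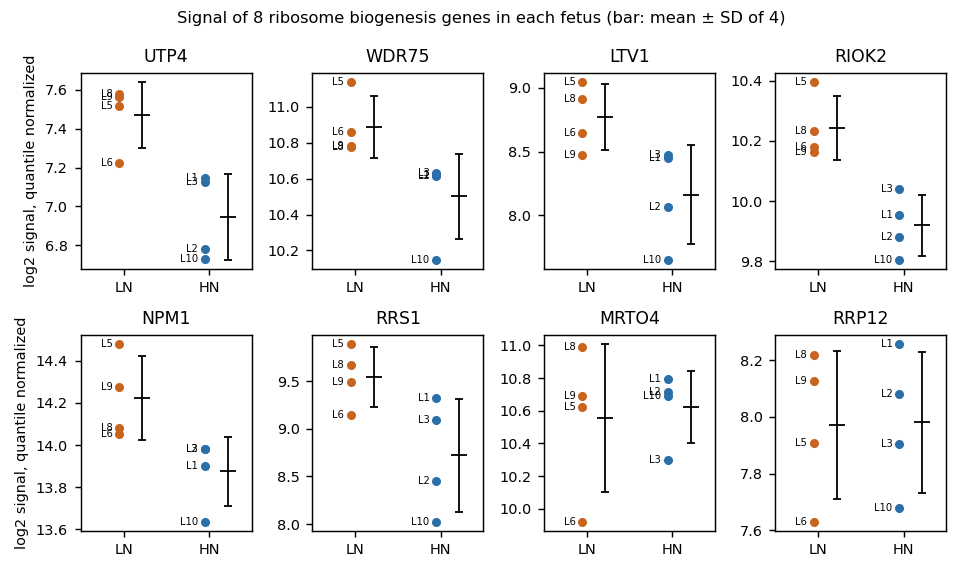
Quantile-normalized log2 signal of 8 ribosome biogenesis genes in each fetus, with LN in orange, HN in blue, and the mean ± SD of 4 fetuses beside the points. UTP4, WDR75, LTV1, RIOK2 and NPM1 have every LN fetus above every HN fetus, RRS1 has the greatest difference but overlaps, and MRTO4 and RRP12 are the 2 genes with a lower LN mean.

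Factors of the large subunit gave a like picture, with 11 of 12 detected genes higher in LN and a median of 0.29, next to 22 of 23 and 0.32 for the small subunit. WDR12, the one detected gene of the PeBoW complex that acts in large subunit rRNA processing, differed by 0.47 (SE 0.21, exact permutation p = 0.114, limma adjusted p = 0.785). RRS1 (NM_001075481), which helps to bring the smallest rRNA into the large subunit, had the greatest difference of the list over all 8 fetuses by the brightest probe. HEATR1 was above it without L3, L5 or L9, without L5 and L10 together, and by the mean over probes. The LN signals of RRS1 were 9.89, 9.14, 9.67 and 9.50 and its HN signals 9.32, 8.45, 9.10 and 8.02 in the same fetus order. LN fetus L6 lay below HN fetus L1, while L2 and L10 lay far below all the others. The difference was 0.83, or 1.77-fold (SE 0.29, exact permutation p = 0.0571, limma adjusted p = 0.760). It was 0.59 without L10.

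NOP16 (NM_001014856), a nucleolar protein of the early large subunit, was 12.35, 12.09, 12.28 and 12.31 in LN and 12.01, 11.88, 12.17 and 11.84 in HN. L6 lay below L3, and the others were in group order, with a difference of 0.28 (SE 0.12, exact permutation p = 0.0571, limma adjusted p = 0.785). NIP7 (NM_001192239), which joins the maturing large subunit in the nucleolus, was 6.72, 6.28, 6.68 and 6.86 in LN and 6.53, 5.74, 6.42 and 5.94 in HN. Its overlap again came from L6, which was below L1 and L3, and the difference was 0.48 (SE 0.21, exact permutation p = 0.0857, limma adjusted p = 0.785), or 0.26 with normexp.

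MRTO4, a placeholder for the ribosomal stalk protein, was one of the 2 genes with a lower LN mean. Its LN values were 10.62, 9.92, 10.99 and 10.69, and its HN values were 10.79, 10.71, 10.30 and 10.69. The low mean came from L6, and the difference of -0.068 (SE 0.23) became 0.14 without that fetus. The dimmer MRTO4 probes differed by 0.075 and 0.088. SBDS, which frees the large subunit for joining and is affected in Shwachman-Diamond syndrome, differed by 0.091 (SE 0.13) on its brightest probe, by 0.13 and 0.11 on others and by -0.15 on the remaining one. On the brightest probe the SBDS difference was 0.038 without L5, 0.045 without L6, 0.043 without L10 and 0.16 without L9, and it was 0.046 as the mean over the probes.

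The snoRNPs, which methylate and pseudouridylate rRNA, were higher in LN in 8 of 8 genes, with a median of 0.23 (0.15 without L10) and 0 genes at an unadjusted p of 0.05 or less. Among the box C/D proteins, FBL, the ribose methyltransferase, had LN signals of 12.84, 12.56, 12.88 and 12.96 and HN signals of 12.69, 12.61, 12.70 and 12.32. L6 was below 3 HN fetuses and the difference was 0.23 (SE 0.14, exact permutation p = 0.114, limma adjusted p = 0.813), or 0.14 without L10. RRP9, which binds the snoRNA of the processome, had a dim probe and a wide range, 3.87 to 5.26 in LN and 3.37 to 4.56 in HN, with a difference of 0.61 (SE 0.345, exact permutation p = 0.200, limma adjusted p = 0.799). The RRP9 difference was 0.15 with normexp and 0.38 without L3.

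By the brightest probes the box H/ACA proteins had the smallest class median, 0.16 over 4 genes. It was not the smallest by the mean over probes, where NOP10 differed by 0.46 in place of 0.14. DKC1, the pseudouridine synthase dyskerin, differed by 0.11 (SE 0.12) with overlapping ranges of 10.41 to 10.67 in LN and 10.27 to 10.55 in HN. It was 0.065 without L9, 0.070 without L2 and 0.20 as the mean over its probes. GAR1, its partner in the same particle, differed by 0.34 (SE 0.23), and by 0.16 without L10, when the class median was 0.079.

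The nucleolar phosphoproteins gave a median of 0.32 together with the helicase DDX21, or 0.19 without L10. NPM1 (NM_001035441), nucleophosmin, an abundant nucleolar chaperone, was 14.48, 14.05, 14.08 and 14.28 in LN fetuses L5, L6, L8 and L9 and 13.90, 13.98, 13.98 and 13.63 in HN fetuses L1, L2, L3 and L10. The groups did not overlap, with L6 just above L2 and L3. The difference was 0.35 (SE 0.14, exact permutation p = 0.0286, limma adjusted p = 0.785). The dimmer NPM1 probes differed by 0.31 and 0.18 with overlap. NOLC1, a chaperone of snoRNPs, differed by 0.52 (SE 0.24, exact permutation p = 0.114, limma adjusted p = 0.785), or 0.32 without L10. NCL, nucleolin, had its smallest difference on its brightest probe, with 12.05, 12.40, 12.30 and 12.28 in LN against 11.99, 12.10, 12.36 and 12.33 in HN, a difference of 0.061 (SE 0.13) that ran from -0.0063 without L1 to 0.13 without L5. Its 3 dimmer probes differed by 0.19, 0.22 and 0.18, and the mean over the probes by 0.16.

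RNA polymerase I, which transcribes the precursor itself, had 3 of 4 listed genes detected, and all 3 were higher in LN with a median of 0.34, or 0.21 without L10. POLR1C, an assembly subunit shared with RNA polymerase III, differed by 0.36 (SE 0.19, exact permutation p = 0.143, limma adjusted p = 0.793). POLR1A, the largest catalytic subunit, was 9.37, 9.50, 9.85 and 9.61 in LN and 9.55, 9.27, 9.36 and 9.42 in HN. L5 was below 2 HN fetuses, and the difference was 0.18 (SE 0.14) or 0.093 without L8, while a dim second probe differed by -0.079 (SE 0.29) and the mean of both by 0.052.

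The remaining 19 detected genes, among them the snoRNP scaffolds NOP56 and NOP58, the helicases DDX21, DDX27, DDX47, DDX52 and DDX56, and the methyltransferase NOP2, all had a higher mean in LN and overlapped between the groups. Their differences ran from 0.13 for NOL10 to 0.43 for BYSL with a median of 0.29, standard errors from 0.12 to 0.28 and exact permutation p from 0.0571 to 0.714. The sign of NOL10 turned without L3 (-0.087) or L5 (-0.019) and under 75th percentile scaling (-0.020), and that of NOL6, at 0.15, turned without L10 (-0.0061). BYSL differed by 0.25 under that scaling, by 0.14 with normexp and by 0.65 without L6.

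The fetuses did not contribute evenly. For each fetus, the median over the 50 genes of its deviation from the gene's mean over 8 fetuses was 0.24 in L5, -0.026 in L6, 0.24 in L8 and 0.14 in L9. In HN it was 0.0060 in L1, -0.23 in L2, -0.0086 in L3 and -0.37 in L10. Thus 3 LN fetuses stood above all HN fetuses, L6 sat level with L1 and L3, and L2 and L10 were lowest. L5 was above the gene's own mean in 44 of 50 genes, L8 in 46 and L9 in 43, against 22 in L6. Among HN fetuses the number was 27 in L1, 24 in L3, 9 in L2 and 3 in L10.

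L10 held the lowest of all 8 values in 29 of the 50 genes, against 17.5% of all genes, and L2 in 13 more, against 11.97%. L5 held the highest value in 23 genes, against 16.3% of all genes. L6 was the lowest LN fetus in 32 genes. The deviations of L10 were broad over the roles, from -0.17 as the median of the MPP10 complex to -0.55 for the nucleolar phosphoproteins and DDX21 and -0.70 for WDR12.

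**Figure D3:**
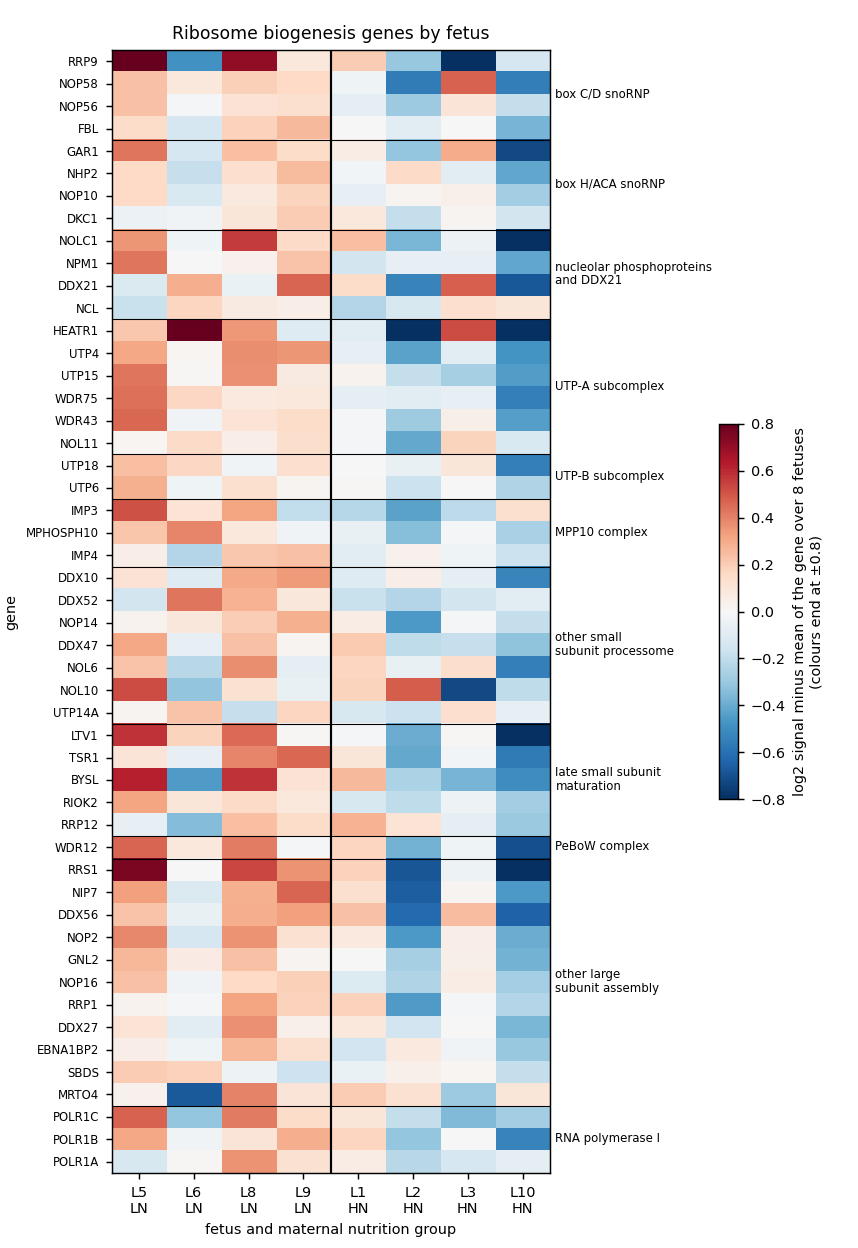
Deviation of the log2 signal from the mean of the gene over 8 fetuses, for 50 ribosome biogenesis genes in rows by role and 8 fetuses in columns (red above, blue below the mean). L5, L8 and L9 are mostly red, L2 and L10 mostly blue, and L6, L1 and L3 mixed.

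Without L10 the median difference of the 50 genes was 0.22, with 47 higher in LN, and 5 genes at an unadjusted p of 0.05 or less (1.89% of all genes then were). Without L5 the median was 0.26, with 48 higher and 2 such genes (2.40% of all genes). With both left out, an alternative chosen after the values were seen, the median was 0.19, with 45 higher in LN and again 2 genes at that level (1.61% of all genes). The direction of the list thus held without L5 and L10, whereas the count at the unadjusted threshold was 2 in place of 11.

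Erythroid and neutrophil markers had higher means in LN, whereas lymphocyte markers had lower ones. Of 12 erythroid markers, 9 were detected and all 9 had a higher mean in LN, with a median of 1.21, although 0 were at an unadjusted limma p of 0.05 or less and 0 were without overlap. The higher erythroid means came mainly from L5, whose beta-globin (HBB) was 14.01 while the others ran from 7.21 to 10.75. The erythroid median was 0.36 without L5 and 0.80 without L1. The mean log2 signal of the 9 erythroid markers was 6.86 to 10.14 in LN and 6.03 to 7.39 in HN, and EPB42, KLF1 and SLC4A1 had no detected probe assigned. Of 11 neutrophil markers, 9 were detected and 8 were higher in LN, 3 of them at that p (33.3%, against 3.30% of all genes) and 3 without overlap (33.3%, against 2.59%). Their median was 0.91, or 0.58 without L1, with mean log2 signals of 9.17 to 10.43 in LN and 8.27 to 9.46 in HN. CSF3R and CXCR2 had no detected probe assigned. All 6 detected lymphocyte markers had a lower mean in LN, 1 of them at an unadjusted p of 0.05 or less (against 2.75% of all genes), with a median of -0.15 that ran from -0.25 without L6 to -0.035 without L3. The median difference was 0.066 for endothelial, 0.12 for bile duct, -0.052 for macrophage and -0.16 for stellate cell markers. With single fetuses left out the sign turned for the endothelial (-0.081 to 0.16), macrophage (-0.23 to 0.14) and stellate cell markers (-0.44 to 0.090), and the bile duct median ran from 0.045 to 0.325. The median deviation of the erythroid markers was 3.21 in L5, 0.048 in L6, -0.69 in L8 and -0.18 in L9, and -1.52, -0.61, 0.086 and -0.31 in HN fetuses L1, L2, L3 and L10. That of the neutrophil markers was -0.13 in L5, 0.87 in L6, 0.15 in L8 and 0.98 in L9, and -1.38, 0.40, 0.27 and -0.94 in L1, L2, L3 and L10. L10 was thus low in neutrophil markers as in the ribosome biogenesis genes, whereas L1 was the lowest in both marker lists and near the middle in the ribosome biogenesis genes. The part of blood cells in the ribosome biogenesis difference was not tested.

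The rest of the pathway was read from a further list of 131 genes, of which 114 had a detected probe. Of these, 102 were higher in LN (89.5%, against 51.6% of all genes), with a median difference of 0.18. At an unadjusted limma p of 0.05 or less 20 were higher (17.5%, against 3.30% of all genes) and 0 lower (against 2.75%). More than 25% higher were 22 (19.3%, against 7.82%) and more than 20% lower were 0 (against 8.63%). In 17 the groups did not overlap, all with LN above (14.9%, against 2.59%). The medians were 0.24 for other large subunit factors, 0.19 for the exosome and rRNA trimming, 0.17 for other small subunit factors, 0.16 for snoRNP assembly and 0.14 for other RNA polymerase I factors, of which the exosome median was 0.11 without L10, 0.12 without L5 and 0.048 without both, and the last 0.082 without L9. The per-fetus medians ran in nearly the same order as for the first list, from 0.14 in L5 and L8 down to -0.16 in L2 and -0.25 in L10.

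PPAN, a large subunit assembly factor, and NAF1 had the greatest differences of this further list. PPAN differed by 0.63 (SE 0.24, exact permutation p = 0.0857, limma adjusted p = 0.765). NAF1, which assembles box H/ACA particles before GAR1 replaces it, was 4.69, 4.48, 4.49 and 4.64 in LN and 3.72, 4.24, 4.03 and 3.82 in HN. Its groups were apart in every fetus, with a difference of 0.62 (SE 0.14, exact permutation p = 0.0286, limma adjusted p = 0.723), which was 0.11 with normexp. FTSJ3, an rRNA methyltransferase, followed at 0.57 (SE 0.23). The lowest were RCL1, an early cleavage factor of the processome, at -0.13 (SE 0.25), the large subunit factor ZNF622 at -0.12 (SE 0.20) and the kinase NOL9 at -0.11 (SE 0.17), each with a difference below its standard error. NOL9 was -0.31 under 75th percentile scaling and -0.012 with normexp.

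The proteins of the ribosome itself had smaller log2 differences. Of 78 cytosolic ribosomal proteins, 76 were detected and 59 were higher in LN (77.6%, against 51.6% of all genes). The median was 0.041 (0.087 under 75th percentile scaling, where the median of all genes was -0.023 and that of the ribosome biogenesis factors 0.30). Of these genes 0 were at an unadjusted p of 0.05 or less, more than 25% higher or more than 20% lower. Their differences ran from -0.093 for RPSA to 0.20 for RPL30. The cytosolic genes lay high on the signal scale, with a mean log2 signal of 16.29 to 16.37 in LN and 16.24 to 16.37 in HN. Their median SD was 0.090 in LN and 0.092 in HN, beside 0.19 and 0.23 for the ribosome biogenesis factors. Whether signal level or spread bears on the smaller differences was not tested. Of 77 mitochondrial ribosomal proteins, 74 were detected, with a median of 0.091 and 58 higher (78.4%, against 51.6% of all genes). At the unadjusted threshold 3 were higher (4.05%, near the 3.30% of all genes), 3 were more than 25% higher (4.05%, below the 7.82% of all genes), and 5 did not overlap (6.76%, against 2.59%), while the cytosolic list had 2 genes without overlap (2.63%). The mitochondrial median was 0.14 without L6. MRPL15 was the highest at 0.43 and MRPL23 the lowest at -0.22, which was -0.082 without L10, -0.14 without L3 and -0.38 without L2. The lists are set side by side as counts and medians, and the difference between them was not tested.

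Genes of the cell cycle and DNA replication had a median below 0. Of 42 genes 36 were detected, 14 of them higher in LN, and the median was -0.092, with -0.18 under 75th percentile scaling and -0.019 as the mean over probes. At an unadjusted p of 0.05 or less 2 were higher (5.56%, against 3.30% of all genes) and 1 was lower (against 2.75%). Without overlap, 2 had LN above HN (against 2.59%) and 0 the reverse (against 1.56%). More than 25% higher in LN were 2 genes (5.56%, against 7.82% of all genes), and more than 20% lower were 6 (against 8.63%). L10 decided the sign of the cell cycle median, which was 0.13 without this fetus. The median deviation of L10 was 0.52 in these genes, against -0.37 in the ribosome biogenesis genes. The greatest differences were 0.91 for CCNE1, cyclin E, with LN signals of 7.19, 6.00, 6.38 and 6.44 above HN signals of 5.34, 5.66, 5.57 and 5.81 without overlap (0.46 with normexp, exact permutation p = 0.0286, limma adjusted p = 0.760), and -0.44 for CDC45, a replication fork protein (-0.28 without L10, exact permutation p = 0.0857, limma adjusted p = 0.785).

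**Figure D4:**
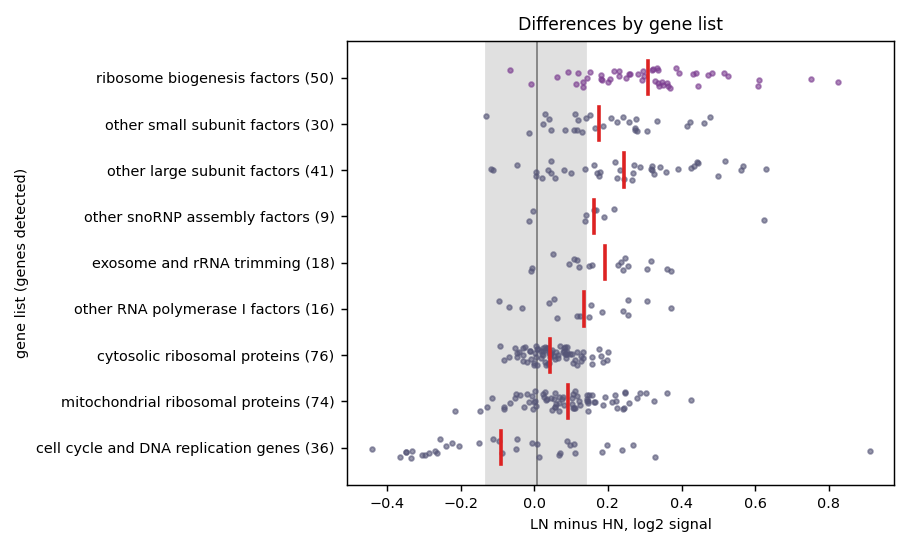
LN minus HN difference in log2 signal for the genes of each list (points) with the list's median (red bar), and the quartiles (grey band) and median (grey line) of all 10860 genes. The 50 ribosome biogenesis factors have a median of 0.31, the sublists of other pathway genes 0.14 to 0.24, the cytosolic ribosomal proteins 0.041, and the cell cycle genes -0.092.

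**Figure D5:**
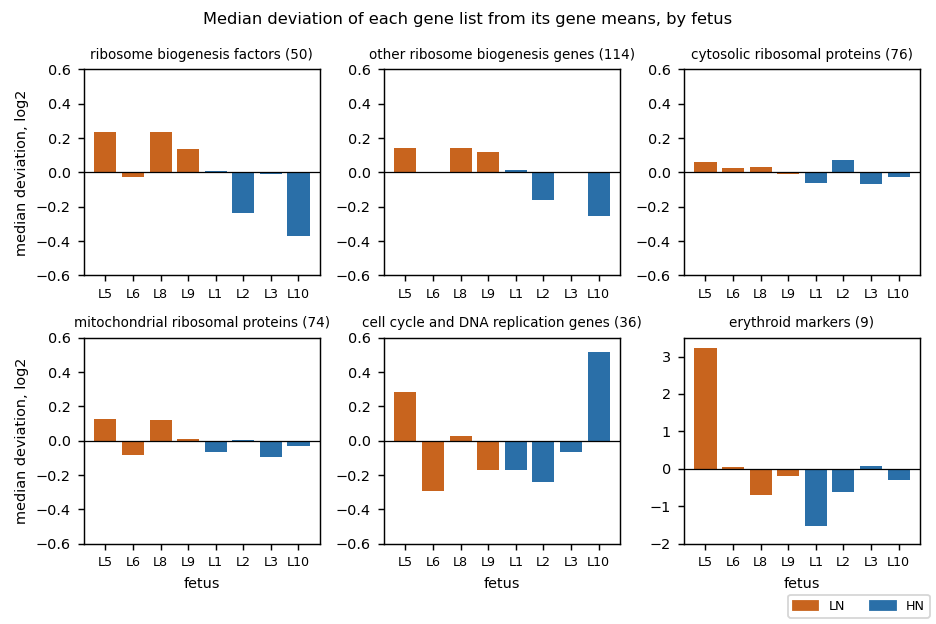
Median over each gene list of the deviation of the log2 signal from the gene's mean over 8 fetuses, by fetus (LN orange, HN blue; the erythroid panel has a wider axis). The ribosome biogenesis factors are highest in L5 and L8 and lowest in L10 at -0.37, the cell cycle genes are highest in L10 at 0.52, and the erythroid markers stand out in L5 at 3.21.

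Regulators of ribosome production were mixed. Of 11 listed, 8 were detected, 4 were higher in LN, and 0 were at an unadjusted p of 0.05 or less, more than 25% higher or more than 20% lower. MYC, the transcription factor that drives many ribosome biogenesis genes, was 10.43, 10.94, 11.40 and 10.15 in LN and 11.03, 10.41, 10.33 and 10.18 in HN. The ranges overlapped almost fully, with a difference of 0.24 (SE 0.29) that was 0.017 without L8, 0.14 without L10, 0.42 without L1 and 0.43 without L9. Its partner MAX differed by 0.16 (SE 0.20; 0.036 without L9 to 0.28 without L5), and MAF1, a repressor of RNA polymerase III, by -0.19 (SE 0.14; -0.11 without L8). The mTOR complex protein RPTOR differed by -0.14 (SE 0.20; -0.24 without L8 to 0.050 without L6, and -0.36 under 75th percentile scaling) and the ribosomal S6 kinase gene RPS6KB1 by -0.052 (SE 0.11; -0.11 without L6 to -0.0068 without L8). The ubiquitin ligase MDM2, which ribosomal proteins can bind, differed by 0.048 (SE 0.13; -0.025 without L6 to 0.11 without L8). The cell cycle inhibitor CDKN1A differed by 0.31 (0.19 as the mean over its probes; SE 0.14, exact permutation p = 0.0857, limma adjusted p = 0.785).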

How the data were processed

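The authors hybridised labelled liver RNA to Agilent bovine v2 arrays in 1 colour and deposited scanner output for 8 arrays, whose spot intensity is background-subtracted within the array (Agilent Feature Extraction 11.0.1.1, per the labels). They also deposited a log2 table of 31068 probes, which the methods say was quantile normalized.

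Here spots marked as outliers were dropped (16 probes), and log2 intensities of 43637 probes were quantile normalized. Detection required a signal well above background on 4 or more of 8 arrays. RefSeq accessions were matched to a gene table of assembly ARS-UCD2.0: 26740 probes fell to 12603 genes. The array rests on another build and no genome was used, so neither coordinates nor sequences are given.

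The comparison of LN with HN used limma 3.58.1 under R 4.3.3 (2-sided, Benjamini-Hochberg over 33439 probes), and single genes also by the exact 2-sided permutation test over 70 divisions of 8 fetuses. The functions were tested on simulated data. The genes and lists were chosen with earlier results of these data known. Named are genes without a probe, without overlap, at an unadjusted p of 0.05 or less, lower in LN, with probes in both directions, or at either end of their role class, plus the 3 ends of the further pathway list, the ends of each compared list and the detected regulators, of which 1 is counted but not reported here.

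The alternatives were scaling to the 75th percentile, normexp with an offset of 50, the authors' table, no detection filter, detection on all 8 arrays, limma with trend and robust settings, array position as a block, the mean over probes, the t-test named in the methods for metabolites and each fetus left out. Leaving out L5 and L10 together was added after the values were seen.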

Additional observations from a re-analysis of the deposited data

Results flagged for a closer look

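WDR75 in HN fetus L10 lay far from the rest of its group: its log2 signal was 10.15, and the gap to the next HN fetus took up 0.966 of the range of the 4 HN values, above the limit of Dixon's test for 4 samples. Of 62 groups of 4 values examined (31 genes in LN and HN), 1 stood out in this way, and chance gives about 1 in 20.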

How the results depend on the processing

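Across all alternatives, 45 to 50 of the 50 genes were higher in LN, and their median difference stayed between 0.19 and 0.36, with 0.30 under scaling to the 75th percentile and 0.27 under normexp. The counts at a threshold were less stable. Genes at an unadjusted limma p of 0.05 or less numbered 2 to 17 with single fetuses left out (2 without L5, 5 without L10, 6 without L8 or L2, 17 without L3) and 2 without L5 and L10, while the share of all genes moved from 3.30% to between 1.89% without L10 and 4.15% without L3, and to 1.61% without L5 and L10. Genes more than 25% higher numbered 12 to 29 with single fetuses left out (12 without L10, 15 without L5 or L2), 13 under normexp and 10 without L5 and L10. The share of all genes more than 25% higher fell from 7.82% to 3.76% under normexp as well, whereas it was 6.81% without L10, 8.50% without L5, 8.66% without L2 and 7.57% without L5 and L10. Genes without overlap numbered 5 to 19 (19 without L6, 12 without L1, 11 without L3), and 8 both under normexp and without L5 and L10. The share of all genes without overlap moved too, from 2.59% to 5.29%, 3.86% and 5.76% without L6, L1 and L3, and 5.02% without L5 and L10, whereas it was 2.75% under normexp. For the further pathway genes, 9 to 28 were at the unadjusted threshold with single fetuses left out (9 without L10, 10 without L8 or L2, 11 without L5) and 4 without L5 and L10, and 13 to 35 were more than 25% higher (13 without L10, 35 without L3) and 9 without L5 and L10, beside the same shares of all genes (9.96% more than 25% higher without L3). The cell cycle median was -0.25 to 0.13 with single fetuses left out and 0.031 without L5 and L10. The cause was not tested.

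Of 1240 values under alternatives for 69 single genes (the 50 detected factors and the other genes named), 25 turned sign. NCL was -0.0063 without L1, and SBDS -0.0091, NOL6 -0.057, NOL10 -0.065 and RPS6KB1 0.0014 without L5 and L10. NOL10 was -0.020 under 75th percentile scaling, RPTOR 0.0044 under normexp and MDM2 -0.0038 as the mean over its probes. With single fetuses left out, RRP12 ran from -0.11 to 0.10 (0.010 without L5, 0.082 without L1, 0.023 without L2), MRTO4 from -0.21 to 0.14, NOL6 from -0.0061 to 0.25, NOL10 from -0.087 to 0.32 (-0.019 without L5), RPTOR from -0.24 to 0.050, MDM2 from -0.025 to 0.11, RCL1 from -0.28 to 0.030, ZNF622 from -0.22 to 0.054, NOL9 from -0.18 to 0.020 and RPSA from -0.24 to 0.041 (0.038 without L9). MRTO4 was 0.032 as the mean over its probes, and RCL1 0.063 without L5 and L10. A further 87 no longer met the unadjusted threshold and 64 newly met it. No paired analysis was possible because the fetus numbers of the 2 groups are all different, so no LN fetus is matched to an HN fetus. Array position on the slide as a block, which pairs places and not fetuses, gave 10 genes at the unadjusted threshold and 14 of the further pathway genes, against 2.43% of all genes (3.30% without the block). With 4 arrays per group, the median over the 50 genes of the standard error of a single gene was 0.16. That value does not measure the error of the list's median difference of 0.31, since the genes were read in the same fetuses.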
